A study of Drosophila melanogaster with 9 samples.

Results

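The 46 genes described here build and time the mitotic spindle: kinetochore subunits, spindle checkpoint proteins, mitotic kinases and cyclins, anaphase regulators, kinesin motors, cytokinesis factors and centrosome proteins. They were listed by name, and the probe table used assigned a probe set to 35 of the 46 among the 11982 genes tested, each read from its brightest probe set over the 9 arrays. The other 11 were not analysed here, because that table assigned them no probe set. They were BubR1, polo, aurA, Cdk1, CycA, stg, Klp3A, pav, sti, cnn and gammaTub23C, so the main mitotic kinases, the Cdc25 phosphatase gene stg and a pair of centrosome genes are missing from every count below.

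The cells came from dissociated wing discs, the larval epithelia that give rise to the adult fly wing, of w1118 larvae about 8 days old, and their RNA was read with Affymetrix arrays. All discs carried en-gal4, which drives transgenes in the posterior compartment, together with UAS-RFP, the caspase inhibitor p35, a dsRNA form of asp and an MMP1-GFP reporter of the matrix metalloproteinase gene Mmp1. Anterior cells, negative for RFP and MMP1-GFP, came from the same discs but lay outside the driver's domain, posterior cells were RFP-positive and MMP1-GFP-negative, and delaminating cells were positive for both, with 3 biological replicates per population. No disc without asp dsRNA or p35 was among the samples, so knockdown, p35, compartment and cell type cannot be told apart in a comparison with anterior cells. The targeted gene asp was not analysed here for want of an assigned probe set.

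A dividing cell condenses its chromosomes, and each chromosome builds a kinetochore on centromeric chromatin to hold spindle microtubules. Unattached kinetochores assemble a checkpoint complex that blocks the anaphase-promoting complex, and once all are attached, that ubiquitin ligase destroys securin and the mitotic cyclins, sisters separate and the cell divides. Abnormal spindle, the product of asp, focuses microtubules at spindle poles, and its loss in fly cells disturbs spindle assembly and chromosome segregation. Wing disc cells proliferate through most of larval life, and mRNA of many of these genes is known to accumulate in cycling cells towards G2 and mitosis.

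Values are log2 signals, in which a difference of 1 is a 2-fold change. Differences between populations were tested with limma over all 11982 genes, and a gene is named as called at a Benjamini-Hochberg adjusted p under 0.05. The sort was visible in compartment genes: en, the posterior selector gene, lay at 7.10, 6.88 and 7.49 in anterior, 10.45, 10.64 and 10.53 in posterior and 10.24, 11.03 and 10.01 in delaminating cells, and ci, the anterior Hedgehog effector, at 10.17, 10.12 and 9.62 in anterior, 8.32, 8.36 and 8.32 in posterior and 7.77, 7.89 and 8.04 in delaminating cells. Array 3 of the anterior cells stood apart from the others before any comparison was made. Its correlation with the other arrays was 0.889 to 0.915, against 0.943 to 0.987 among the other 8. Named differences from anterior cells are therefore also given without it. The series' design text calls the replicates biological, and their number limited the precision. In sorted bulk samples, fewer mitotic cells and less of these RNAs per cell cannot be told apart.

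Across the 35 genes, 0 were called in any of the 3 comparisons. The differences between delaminating and posterior cells ran from -0.49 to 0.43, those between posterior and anterior cells from -0.11 to 0.56, and those between delaminating and anterior cells from -0.26 to 0.73. Each gene's 95% interval gives a range for its difference in signal, taken gene by gene and not adjusted for the number of genes. For delaminating against posterior cells the interval lay within a 2-fold change in either direction for 30 of 35 genes (85.7%, against 77.1% of all genes), for posterior against anterior cells for 29 (82.9% against 72.3%), and for delaminating against anterior cells for 30 (85.7% against 69.4%). The median half-width of the members' intervals was 0.50, and the farthest bound was a 2.6-fold difference, for tacc in delaminating against anterior cells. Without anterior replicate 3 the spread was smaller and all 35 intervals lay within 2-fold in all 3 comparisons, against 86.7%, 87.1% and 79.8% of all genes. The farthest bound was then 1.95-fold in delaminating against posterior cells, for ana2. In delaminating against anterior cells it was a log2 difference of 0.998, for msps, just inside 2-fold. Without delaminating replicate 2 instead, 27, 29 and 28 of 35 lay within 2-fold, in the same order of comparisons.

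**Figure D1:**
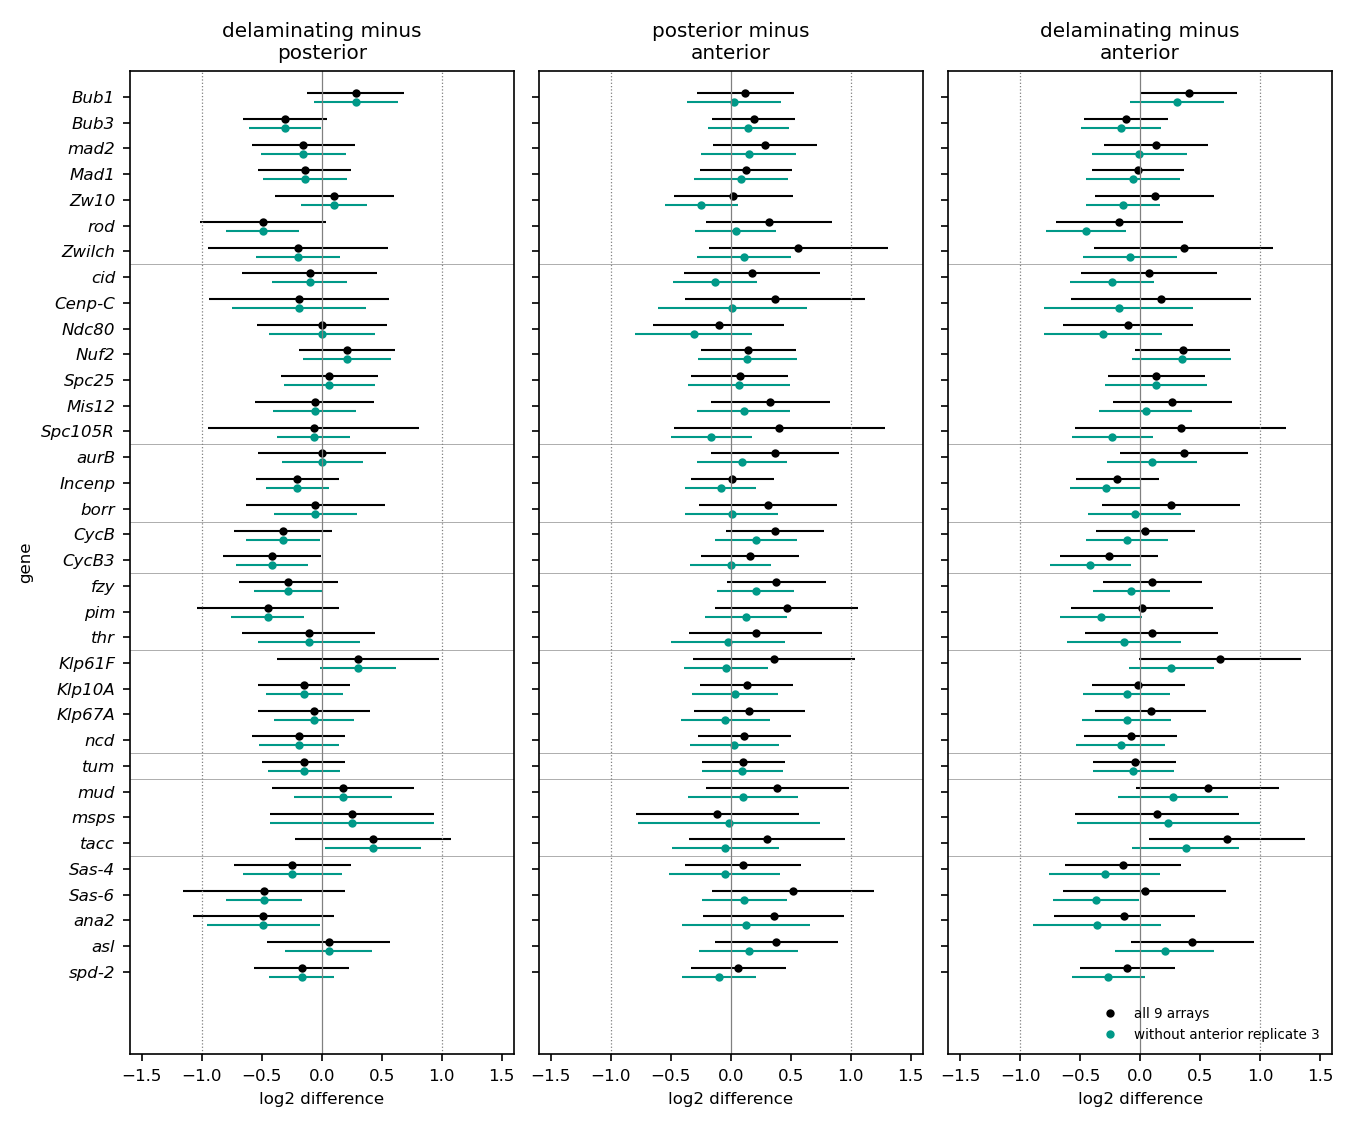
Log2 difference of each of the 35 mitotic genes (points) with its 95% interval from limma (lines) in the 3 comparisons, fitted to all 9 arrays (black) and without anterior replicate 3 (teal). Dotted lines mark a 2-fold change and grey horizontal lines part the role groups; the black points lie between -0.49 and 0.73, and without anterior replicate 3 every interval stays between the dotted lines.

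The array-by-array levels show where the variation lies. Anterior replicate 3 had the lowest value of its group for 31 of the 35 genes, and 1 of the 35 lay above its own mean over the 9 arrays there, against 27 and 21 in the other anterior arrays, 26 to 30 in posterior and 13 to 22 in delaminating arrays. The median deviation of the 35 genes from their own means was -0.51 on anterior replicate 3, while that of all genes was -0.20 and that of 24 DNA replication genes -0.33. On the other 8 arrays the members' median lay between -0.12, on delaminating replicate 2, and 0.14, on posterior replicate 1. Delaminating replicate 2 had the lowest value of its group for 18 of the 35 genes and the highest for 12.

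**Figure D2:**
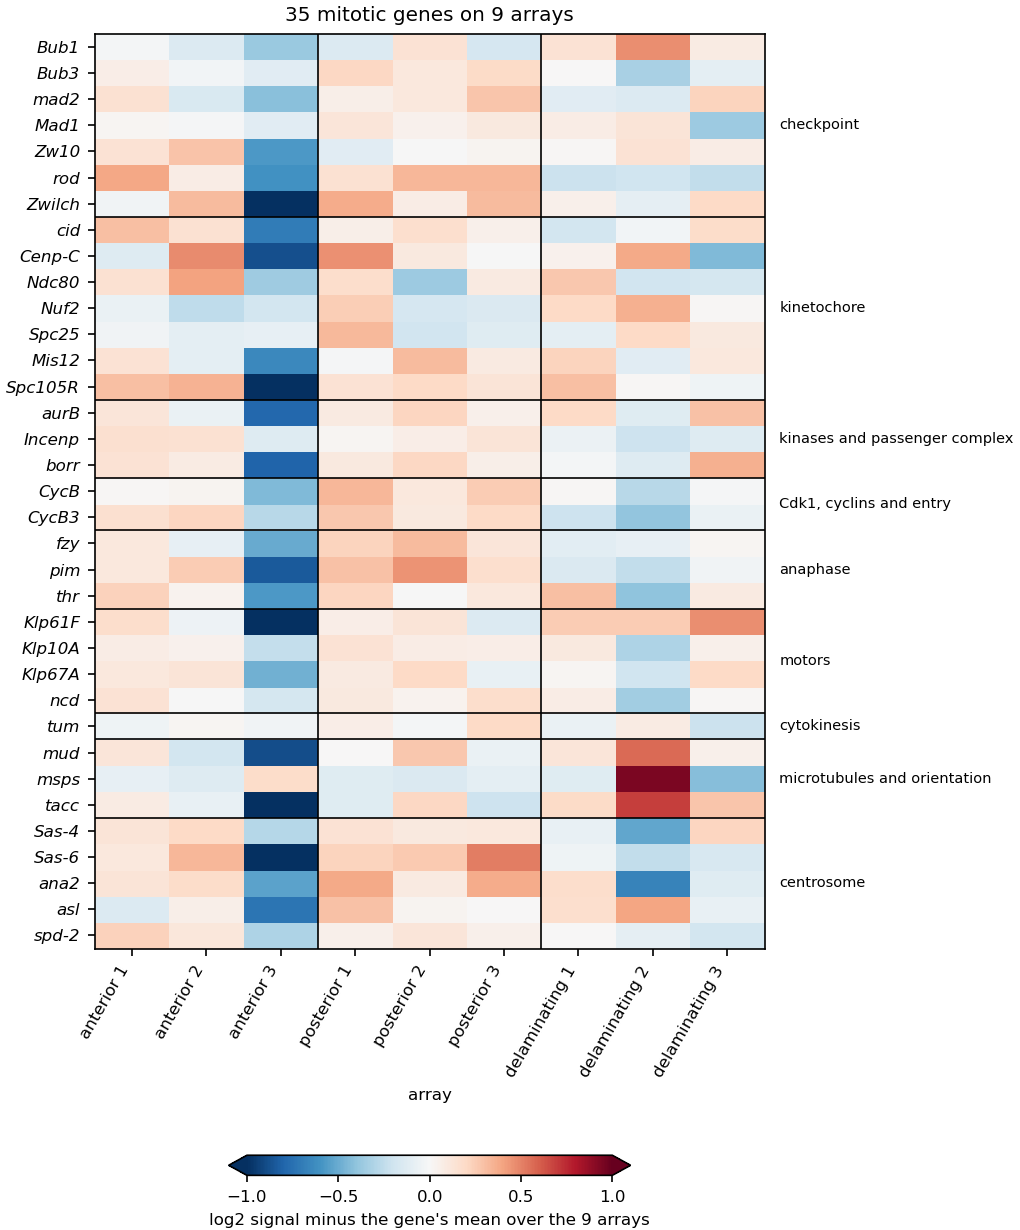
Each row is 1 of the 35 mitotic genes, grouped by role, and each column 1 array; colour gives the log2 signal minus the gene's mean over the 9 arrays, with values beyond 1 in either direction drawn at the end of the scale. Anterior replicate 3 is blue, below the mean, for all but 1 gene, and msps, tacc and mud have their highest values on delaminating replicate 2.

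**Figure D3:**
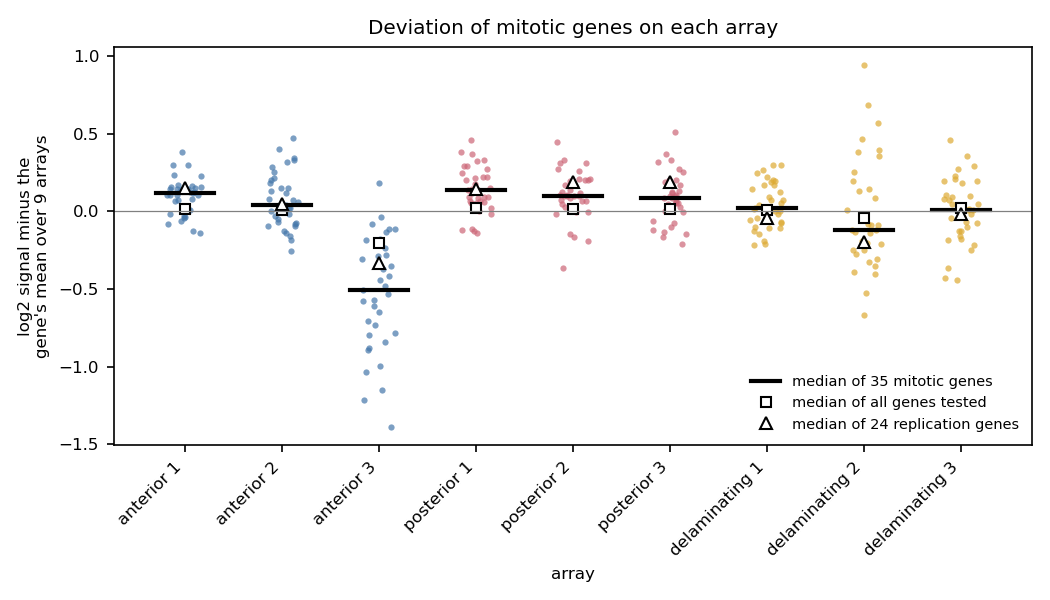
Points are the 35 mitotic genes on each array, as log2 signal minus the gene's mean over the 9 arrays; bars are their median, squares the median of all genes tested and triangles the median of 24 replication genes. The members' median is -0.51 on anterior replicate 3 and between -0.12 and 0.14 on the other 8 arrays.

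The first comparison set delaminating cells against posterior cells, which carry the same transgenes but show no reporter signal. Of the 35 genes limma called 0, against 0.801% of all genes, and 1 had an unadjusted p under 0.05, or 2.86% against 9.98% of all genes. Anterior replicate 3 enters this comparison through the shared spread: without it 8 of 35 (22.9%) had an unadjusted p under 0.05, against 16.6% of all genes, and 0 were called. The count was 4 (11.4%, against 15.1% of all genes) with only the 2 groups compared in the fit. With all arrays the smallest adjusted p among members was 0.489. The difference was below 0 for 24 of 35, or 68.6% against 50.5% of all genes, with a median of -0.14 against -0.0031 over all genes. The 3 values of each group did not overlap for 10 members (28.6%, against 22.3% of all genes). Delaminating values were lower for 9 of them (25.7%, against 11.5% of all genes) and higher for 1 (2.86%, against 10.7% of all genes). Without delaminating replicate 2 the difference was below 0 for 23 of 35, and the median was -0.06 against 0.0055 over all genes. All 35 genes were read on the same arrays and no score over them was tested, so these counts are a description. Muscle precursor markers, 6 of 9 measured, were lower in delaminating cells for 5 of 6, with 2 called, Him by -1.95 and hbs by -1.27 (limma adjusted p = 0.0381 and 0.0465). The 1 remaining marker went the other way by 1.37, with an unadjusted limma p under 0.05 and no call. Hemocyte markers were above 0 for 13 of 14 with a median of 0.85, and 0 were called. Among the other markers, 3 measured of 4 listed for peripodial and squamous cells had a summed linear signal of 1989 to 2836 on delaminating and 344 to 754 on posterior arrays, with upd1, a JAK/STAT ligand gene, the 1 of the 3 higher on every delaminating array. These 3 differences ran from -0.09 to 2.77 with a median of 0.57. Of the 3, 1 was below 0 and 1 was called higher (limma adjusted p = 0.0107). Glial markers, 4 of 4 measured, summed to 1760 to 2103 and 948 to 1099, with the defining gene repo below the lower quartile of all 9 arrays. The glial genes did not move together. Their differences ran from -0.24 to 2.13 with a median of 0.21, 1 of 4 was below 0, and 2 were higher on every delaminating array. Neither the cell types behind these markers nor their part in the members' values was tested.

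Posterior cells were compared with anterior cells of the same discs, the comparison closest to a response to asp knockdown. Again 0 of 35 genes were called, against 0.576% of all genes, and 0 had an unadjusted p under 0.05, against 9.6% of all genes. The signal was nominally higher in posterior cells for 33 of 35 (94.3%, against 60.7% of all genes), with a median difference of 0.21 against 0.09. That balance rested on 1 array: without anterior replicate 3, 22 of 35 were above 0 (62.9%, against 51.9% of all genes), the members' median was 0.03 against 0.01, and the differences ran from -0.31 to 0.21. All genes brighter than the dimmest 25% also leaned upward with all arrays in the fit, with 70.9% of 8986 above 0 and a median of 0.15. Posterior values lay above all anterior values for 4 members, Bub3, Mad1, CycB and fzy (11.4%, against 11.9% of all genes), and the reverse was seen for 0. Leaving out an array can add genes to such a count but cannot remove any, so finding these 4 again is no check of them. Without anterior replicate 3 no further member joined them (11.4%, against 14.7% of all genes), and the reverse was seen for 3 (8.57%, against 12.9%).

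Delaminating against anterior cells gave 0 called members, against 3.82% of all genes, and 2 higher with an unadjusted p under 0.05, Bub1 and tacc (5.71%, against 10.8% of all genes). The difference was above 0 for 23 of 35 (65.7%, against 56.2% of all genes) with a median of 0.10. Without anterior replicate 3 it was above 0 for 10 of 35 (28.6%, against 50.1% of all genes) and the median turned to -0.11, against 0.00056 over all genes, so the direction of the members turned with that array left out. It also turned with all arrays after a repeated quantile normalization, with 15 of 35 above 0 and a median of -0.02. Delaminating values lay above all anterior values for 4 members, Bub1, Nuf2, Klp61F and tacc (11.4%, against 13.2% of all genes). Here too these 4 could not be lost by leaving out an array. Without anterior replicate 3 no further member joined them (11.4%, against 17.7% of all genes), while 7 lay below all anterior values (20%, against 17.3%). Each pair of comparisons shares the arrays of 1 population, so their values for a gene are given side by side and not related to each other.

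Checkpoint genes came first among the roles. Of the 7 measured of 8, 5 were below 0 in delaminating against posterior cells, with a median of -0.15, and 7 above 0 in posterior against anterior cells, with a median of 0.19, which was 6 of 7 and 0.09 without anterior replicate 3. Bub1, a kinase that docks checkpoint proteins on kinetochores, lay at 8.78, 8.65 and 8.43 in anterior, 8.65, 8.93 and 8.63 in posterior and 8.94, 9.26 and 8.88 in delaminating cells. Its delaminating values did not overlap with its anterior ones (log2 difference 0.40 ± 0.18 SE, limma adjusted p = 0.301, or 0.31 without anterior replicate 3), but did with its posterior ones.

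The gene rod belongs with Zw10 and Zwilch to the complex that brings dynein and the checkpoint proteins Mad1 and Mad2 to unattached kinetochores. It lay at 9.42, 9.11 and 8.43 in anterior, 9.19, 9.37 and 9.37 in posterior and 8.82, 8.84 and 8.79 in delaminating cells. The delaminating values were nearly identical and lower than all posterior values, with the largest negative difference among the 35 genes in that comparison (-0.49 ± 0.24 SE, limma adjusted p = 0.538, 95% interval -1.02 to 0.03). Without anterior replicate 3, which enters this comparison only through the shared spread, its interval was -0.79 to -0.19 and its adjusted p 0.105. The other subunits of that complex had differences of 0.11 for Zw10 and -0.20 for Zwilch, so the 3 subunits did not share a sign.

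Bub3, the partner that ties Bub1 to kinetochores, was higher on all posterior arrays (11.79 to 11.89) than on all anterior (11.57 to 11.75) and all delaminating arrays (11.36 to 11.68), at differences of 0.19 and -0.31 and limma adjusted p of 0.623 and 0.572. The first was 0.15 without anterior replicate 3. The gene mad2, for the checkpoint protein that binds the Cdc20 activator Fizzy, differed by -0.15 in delaminating against posterior cells, and Mad1, its kinetochore anchor, by -0.14.

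The 7 kinetochore genes were all measured. Their median difference was -0.06 in delaminating against posterior cells, with 4 of 7 below 0 and 0 groups without overlap. In posterior against anterior cells it was 0.17 with 6 of 7 above 0, and 0.01 with 4 of 7 above 0 without anterior replicate 3. Nuf2, a subunit of the Ndc80 complex that binds microtubules, lay at 8.86, 8.67 and 8.74 in anterior, 9.17, 8.76 and 8.78 in posterior and 9.13, 9.28 and 8.93 in delaminating cells. Its delaminating values lay above all anterior values (difference 0.36 ± 0.18 SE, limma adjusted p = 0.356, or 0.35 without anterior replicate 3) and overlapped with posterior ones.

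Mis12, of the complex that links centromere and microtubule-binding subunits, lay at 7.25, 7.01 and 6.46 in anterior, 7.09, 7.42 and 7.19 in posterior and 7.33, 6.99 and 7.21 in delaminating cells, and all 3 groups overlapped. The other subunits of the Ndc80 complex differed by 0.00 for Ndc80 and 0.06 for Spc25 in delaminating against posterior cells. The centromeric histone gene cid differed by -0.10, the centromere protein gene Cenp-C by -0.19, and Spc105R, the scaffold on which Bub proteins gather, by -0.07. Spc105R was also the member with the widest interval there (-0.95 to 0.81), since anterior replicate 3 lay at 6.96 against 8.64 and 8.68 on the other anterior arrays.

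Of the chromosomal passenger complex, which corrects wrong attachments and later marks the cleavage plane, aurB (its kinase), Incenp (its scaffold) and borr (borealin) were measured. In delaminating against posterior cells aurB differed by 0.01 and borr by -0.05. For aurB the values were 8.89, 8.71 and 7.99 in anterior, 8.87, 8.98 and 8.83 in posterior and 8.97, 8.65 and 9.07 in delaminating cells, overlapping between all groups. Incenp, at 11.23, 11.23 and 10.94 in anterior, 11.10, 11.14 and 11.20 in posterior and 11.02, 10.86 and 10.95 in delaminating cells, was lower on all delaminating than on all posterior arrays, by -0.20 ± 0.15 SE (limma adjusted p = 0.774).

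Both measured mitotic cyclin genes were lower on every delaminating array than on every posterior array, as were 11.5% of all genes. CycB3, whose product acts with Cdk1 at the onset of anaphase in flies, lay at 11.36, 11.42 and 10.93 in anterior, 11.47, 11.30 and 11.41 in posterior and 10.99, 10.81 and 11.13 in delaminating cells. Its difference of -0.41 ± 0.18 SE was the 1 member difference in that comparison with an unadjusted p under 0.05 (limma adjusted p = 0.489). CycB, for the cyclin that drives entry into mitosis, lay at 10.40, 10.42 and 9.95 in anterior, 10.72, 10.50 and 10.65 in posterior and 10.41, 10.12 and 10.38 in delaminating cells. It was -0.32 ± 0.18 SE lower in delaminating cells (limma adjusted p = 0.639), and its posterior values also lay above all anterior values, by 0.37 (adjusted p = 0.549). Without anterior replicate 3 CycB differed by 0.21 and CycB3 by -0.00 between posterior and anterior cells. CycB3 was called in 1 of 20 other settings, with array weights in delaminating against anterior cells (-0.39, limma adjusted p = 0.0373), where 16.5% of all genes were called.

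All 3 measured anaphase genes were below 0 in delaminating against posterior cells, with a median of -0.28. The gene pim encodes securin, which holds separase inactive until anaphase. It lay at 8.75, 8.90 and 7.81 in anterior, 8.94, 9.10 and 8.82 in posterior and 8.50, 8.40 and 8.61 in delaminating cells, so the delaminating values were lower than all posterior values and within the anterior range (difference from posterior -0.45 ± 0.27 SE, limma adjusted p = 0.661). The gene thr, for a subunit of the fly separase complex, differed by -0.11, and by -0.26 to 0.09 over the settings tried, so its sign was not stable.

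Fizzy, encoded by fzy, is the Cdc20 activator of the anaphase-promoting complex and the target of the checkpoint. Its brightest probe set lay at 10.61, 10.42 and 9.99 in anterior, 10.72, 10.81 and 10.62 in posterior and 10.39, 10.42 and 10.52 in delaminating cells, with delaminating values below all posterior ones (difference -0.28 ± 0.18 SE, limma adjusted p = 0.72). Posterior values lay above all anterior values by 0.38 (limma adjusted p = 0.542), or by 0.21 without anterior replicate 3. The other probe sets of fzy went the other way in posterior against anterior cells, by -0.95 and -1.04. Both were set by anterior replicate 3, which lay at 10.5 and 11.2, against 7.52 to 8.11 and 7.96 to 8.63 on the other 8 arrays. With the mean of the 3 probe sets fzy differed by -0.54 in that comparison and by 0.03 in delaminating against posterior cells.

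Among motors, Klp61F, the kinesin-5 that pushes spindle poles apart, was the 1 member whose delaminating values all lay above all posterior values. It lay at 9.28, 9.06 and 7.96 in anterior, 9.17, 9.24 and 8.97 in posterior and 9.36, 9.36 and 9.57 in delaminating cells. The difference was 0.30 ± 0.30 SE from posterior (limma adjusted p = 0.865) and 0.67 from anterior cells (adjusted p = 0.31), the latter 0.26 without anterior replicate 3. The kinesin-14 gene ncd, whose motor bundles microtubules towards the poles, lay at 11.24, 11.10 and 10.92 in anterior, 11.19, 11.13 and 11.27 in posterior and 11.17, 10.75 and 11.11 in delaminating cells, with overlap between all groups. Klp10A, a kinesin-13 that depolymerises microtubules, differed by -0.15 in delaminating against posterior cells, and Klp67A, a kinesin-8 that limits spindle length, by -0.07.

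The gene tum encodes the Rac GTPase-activating subunit of centralspindlin, which organises the midzone and the cleavage furrow, and was the 1 measured cytokinesis member. It lay at 10.73, 10.79 and 10.73 in anterior, 10.84, 10.75 and 10.97 in posterior and 10.70, 10.86 and 10.56 in delaminating cells. Its differences of -0.15, 0.10 and -0.05 in the order of the comparisons above came with the smallest SE of the 35 genes, 0.15, and the last 2 were 0.09 and -0.06 without anterior replicate 3.

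The genes of spindle microtubules and orientation were the role group with all measured members above 0 in delaminating against posterior cells, at a median of 0.25. The gene tacc, for a centrosomal partner of the microtubule polymerase Minispindles, lay at 9.37, 9.22 and 8.26 in anterior, 9.17, 9.50 and 9.08 in posterior and 9.49, 9.98 and 9.57 in delaminating cells. Its delaminating values lay above all anterior but not all posterior values, and it had the smallest p of the 35 genes in delaminating against anterior cells (0.73 ± 0.29 SE, limma adjusted p = 0.245). That difference was 0.38 without anterior replicate 3 (limma adjusted p = 0.368). The gene mud, for the fly NuMA homolog that orients spindles, lay at 9.79, 9.48 and 8.77 in anterior, 9.67, 9.93 and 9.60 in posterior and 9.79, 10.23 and 9.71 in delaminating cells. Its other probe sets differed by 0.59 and 0.12 in delaminating against posterior cells, against 0.18 for the brightest.

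In that group, msps, the polymerase gene itself and chosen here after its values were seen, lay at 11.62, 11.57 and 11.89 in anterior, 11.58, 11.56 and 11.60 in posterior and 11.58, 12.64 and 11.27 in delaminating cells. For tacc, mud and msps the highest of the 9 values was that of delaminating replicate 2, and without it the group's median was 0.01 with 2 of 3 above 0. The same array carried the most RNA of blood cell markers. The summed linear signal of 14 measured hemocyte markers was 26654 on delaminating replicate 2, against 8311 and 10013 on the other delaminating, 6438 to 9097 on posterior and 15523 to 20490 on anterior arrays. For 12 of the 14, Hml, NimC1, eater and He among them, the highest of the 9 values was on that array, and lz lay below the lower quartile on all arrays. The part of these markers in the values of msps, tacc and mud was not tested.

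Centrosome genes were measured for 5 of 7. In delaminating against posterior cells 4 of 5 were below 0, with a median of -0.24, and 2, Sas-6 and spd-2, were lower without overlap, as were 11.5% of all genes. The gene ana2, for the fly STIL homolog that starts centriole duplication, lay at 9.03, 9.08 and 8.37 in anterior, 9.28, 8.99 and 9.28 in posterior and 9.08, 8.24 and 8.78 in delaminating cells. Its difference of -0.49 ± 0.26 SE from posterior cells (limma adjusted p = 0.611) came with overlap and was -0.26 without delaminating replicate 2. Sas-6, which forms the centriole's cartwheel with Ana2, differed by -0.48 (limma adjusted p = 0.693) and by -0.43 without that array. The gene asl, which anchors the duplication kinase to centrioles, lay at 10.05, 10.25 and 9.45 in anterior, 10.48, 10.22 and 10.19 in posterior and 10.35, 10.58 and 10.11 in delaminating cells, and its difference from posterior cells was 0.06. The centriole growth gene Sas-4 differed by -0.24, and spd-2, which recruits the microtubule-nucleating matrix, by -0.17.

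**Figure D4:**
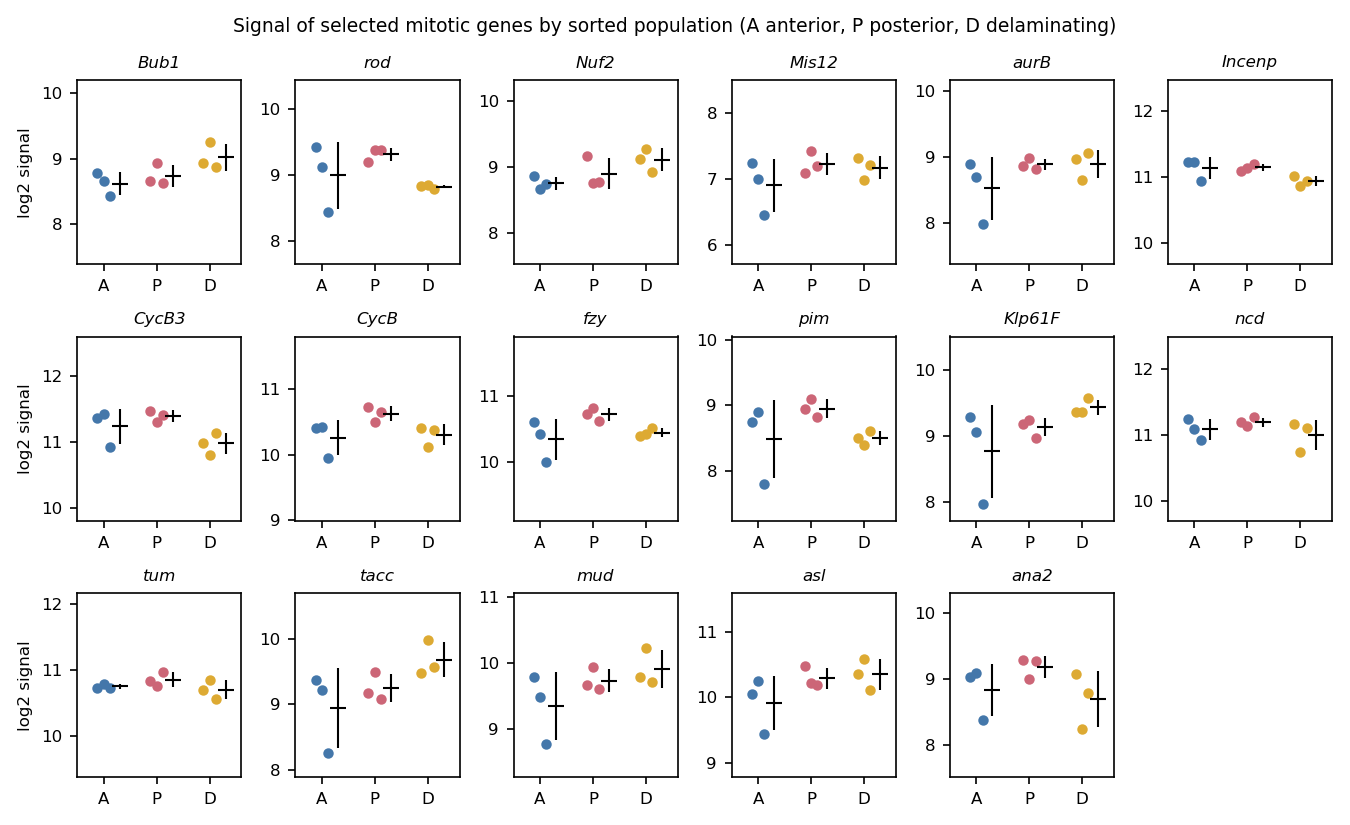
Log2 signal of the members with the smallest p over the 3 groups in each role; points are arrays in the order of their replicate numbers and black dashes with bars are mean ± SD (n = 3), with the same span of 2.8 log2 units on each axis. CycB3, CycB, pim, fzy, rod and Incenp are lower on all delaminating than on all posterior arrays, Klp61F is higher, and anterior replicate 3 is the lowest point for most genes.

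Other genes of mitosis were read from a list of 90, of which 73 were measured. Of these, 0 were called in delaminating against posterior cells, against 0.801% of all genes. Without anterior replicate 3 it was 1, dia, against 2.35% of all genes. With all arrays 54 of 73 were below 0 there, against 50.5% of all genes, and the median was -0.13. In posterior against anterior cells 1 of 73 was called lower (0.484% of all genes were). There 61 of 73 were above 0, against 60.7% of all genes, and the median was 0.25. Without anterior replicate 3 it was 47 of 73, against 51.9% of all genes, and a median of 0.07. In delaminating against anterior cells 2 of 73 were called higher and 3 of 73 lower, against 2.4% and 1.43% of all genes. The formin gene dia, whose product nucleates actin for the cytokinetic ring and for cell junctions, rose 3.17-fold in delaminating against anterior cells (1.67 ± 0.24 SE, limma adjusted p = 0.005) and kept its call in all 20 other settings. It lay at 6.65, 6.70 and 6.21 in anterior, 6.68, 7.25 and 6.97 in posterior and 7.91, 8.62 and 8.03 in delaminating cells, and delaminating values were above all others (difference from posterior 1.22, limma adjusted p = 0.0581, or 0.0248 without anterior replicate 3). Its difference from anterior cells was 1.51 without that array.

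APC7, a subunit of the anaphase-promoting complex, rose 2.36-fold (limma adjusted p = 0.0322), from 6.81 to 7.74 on anterior arrays to 8.22 to 8.88 on delaminating arrays. Its call was lost without anterior replicate 2 (limma adjusted p = 0.0828), delaminating 1 (0.127), delaminating 2 (0.0925), delaminating 3 (0.057), posterior 1 (0.0608) or posterior 3 (0.0597), and with only the 2 groups compared in the fit (0.103). It was also lost without anterior replicate 3 and delaminating replicate 2 together (limma adjusted p = 0.082). The difference was 0.99 without anterior replicate 3 (limma adjusted p = 0.048), against 1.24 with it. Klp59C, a kinesin-13 that acts at centromeres in anaphase, fell 3.24-fold in posterior against anterior cells (limma adjusted p = 0.0188) and 2.19-fold in delaminating against anterior cells (adjusted p = 0.0428). It lay at 7.62, 8.14 and 8.34 in anterior, 5.94, 6.52 and 6.56 in posterior and 6.69, 6.77 and 7.26 in delaminating cells, so anterior values were above all others, and the posterior mean lay below the lower quartile of each array, where folds are least certain. The first call was lost without anterior replicate 2 (limma adjusted p = 0.098), posterior 1 (0.1) or posterior 2 (0.0673), and with only the 2 groups compared in the fit (0.0643). It was also lost without anterior replicate 3 and delaminating replicate 2 together (limma adjusted p = 0.0565). The differences were -1.54 and -0.98 without anterior replicate 3. The second call was lost without anterior 2 (0.124), anterior 3 (0.0758), delaminating 1 (0.158), delaminating 2 (0.13), delaminating 3 (0.0597), posterior 2 (0.0703) or posterior 3 (0.0664), with only the 2 groups compared (0.1) and after a repeated quantile normalization (0.0536). It was also lost without anterior 3 and delaminating 2 together (limma adjusted p = 0.14), and without anterior 3 with arrays centred on their medians (0.0718).

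The gene Plp, for the pericentrin-like protein that anchors the pericentriolar matrix, fell 1.96-fold in delaminating against anterior cells (limma adjusted p = 0.00984), with its other probe sets at -0.32 and -0.42 and the call lost with the mean of the 3 (adjusted p = 0.134) and with only the 2 groups compared in the fit (0.0588). Plp differed by -0.99 without anterior replicate 3, against -0.97 with it. Nnf1b, a subunit of the Mis12 complex, was called lower in that comparison with signals of 5.92 to 6.19 on anterior and 5.05 to 5.15 on delaminating arrays, all below the arrays' lower quartiles (limma adjusted p = 0.021). Its call was lost without anterior replicate 1 (limma adjusted p = 0.0627), anterior 2 (0.0553), delaminating 1 (0.0902), delaminating 2 (0.051) or delaminating 3 (0.0744), and with only the 2 groups compared in the fit (0.0657). It differed by -0.94 without anterior replicate 3, against -0.90 with it.

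In lists with no called gene, those with the smallest p were Cap-H2, a condensin II subunit, and SMC3 of cohesin, at -0.73 in delaminating against anterior and 0.41 in posterior against anterior cells (limma adjusted p = 0.0805 and 0.502), or -0.61 and 0.28 without anterior replicate 3. For microtubule branching and nucleation they were dgt2 of augmin and Grip84 of the gamma-tubulin ring, at 0.54 in delaminating and 0.41 in posterior against anterior cells (limma adjusted p = 0.175 and 0.563), or 0.39 and 0.15 without anterior replicate 3. For entry and exit Cks30A, a Cdk1-binding protein, differed by 0.45 in posterior against anterior cells (limma adjusted p = 0.433), or by 0.35 without anterior replicate 3, and twe, the germline Cdc25 phosphatase gene, had signals of 3.24 to 4.89 over the 9 arrays, below their lower quartiles.

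Markers of other cell types also differed between anterior cells and the others. Muscle precursor markers, genes of the myoblasts that lie under the disc epithelium, had a summed linear signal over 6 measured of 9 of 14577 to 17166 on anterior, 4904 to 5708 on posterior and 2443 to 3871 on delaminating arrays, with 0 of the 6 below the lower quartile on all arrays. In posterior against anterior cells 5 of the 6 were below 0 and 1 was above. Of the 6, 4 were called lower there, as were 0.484% of all genes. The summed hemocyte signal given above was also higher on anterior than on posterior arrays, but 6 of the 14 markers were above 0 and 8 below in posterior against anterior cells (median -0.20), and the 2 lower without overlap were vkg and Col4a1, both collagen genes. Neither the cell types behind these signals nor their part in the levels of mitotic genes was tested.

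Replication genes were the most similar set available for comparison. Of 24 measured of 30, limma called 0 in each comparison, against 0.801%, 0.576% and 3.82% of all genes. The unadjusted p was under 0.05 for 2, 2 and 3 of the 24, against 9.98%, 9.6% and 16.6% of all genes. In delaminating against posterior cells 21 of 24 were below 0 with a median of -0.29, against 24 of 35 and -0.14 for the spindle and kinetochore genes. Groups did not overlap, with delaminating values lower, for 10 of 24 replication genes and 9 of 35 mitotic genes, against 11.5% of all genes. In posterior against anterior cells the medians were 0.23 and 0.21 with all arrays, and 0.07 and 0.03 without anterior replicate 3. The difference between both sets was not tested.

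The order of the 3 group means put delaminating cells lowest for 11 of the 35 genes with all arrays. All 11 had posterior cells highest (31.4%, against 15% of all genes), and 0 had anterior cells highest (against 14.9% of all genes). Without anterior replicate 3 delaminating cells were lowest for 23. Of these, 15 had posterior cells highest (42.9%, against 17.4% of all genes) and 8 had anterior cells highest (22.9%, against 19.9%). Posterior cells were highest for 24 of 35 with all arrays, the 11 above and 13 with anterior cells lowest (37.1%, against 20.7% of all genes). Without anterior replicate 3 that last order held for 1 of 35 (2.86%, against 13.3% of all genes). Neighbours in these orders did not differ beyond the test's threshold for any of the 35 genes.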

How the data were processed

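RNA of 3 sorted cell populations, with 3 arrays each, was amplified as cDNA by whole transcriptome amplification and hybridised to Affymetrix arrays, per the labels' protocols. The deposited values are log2 signals per probe set, which the authors made with RMA (background correction, quantile normalization and probe summary), per the submitters' processing notes; the RMA version and any further filter are not given in the sources used here. Such values carry no detection calls, so low signals cannot be told from background, and RMA pulls small differences at low signal towards 0.

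Of 18952 probe sets, 183 were controls, 13647 had 1 gene symbol in the platform table, 402 had several and 4720 none. Only those with 1 symbol were used, each gene at its brightest probe set, which gave 11982 genes, of which 11893 matched RefSeq by gene identifier. One mean per population was fitted with limma 3.58.1 in R 4.3.3 to all 9 arrays, with moderated two-sided tests and Benjamini-Hochberg adjustment over all genes, and the code was checked on simulated data. Array medians over genes ran from 7.66 to 7.94. Values on every array are given for the 2 members of each role with the smallest p over the 3 populations, by a stated rule. The members, gene lists and rules were chosen with earlier results of these data known. Alternatives covered normalization, filters, probe sets, array weights, variance model, replicate block and each array left out.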

Additional observations from a re-analysis of the deposited data

How the results depend on the processing

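Members called stayed at 0 in all 3 comparisons under every setting tried except those named next. With array weights 1 was called in delaminating against anterior cells (CycB3), and with an unadjusted p under 0.05 there were 1 in delaminating against posterior and 2 in delaminating against anterior cells. The members' median in delaminating against posterior cells was -0.083 with array weights and -0.0606 without anterior replicate 3 and delaminating replicate 2 together, and leaving out each array in turn gave -0.171 to -0.0606. Leaving out arrays gave 0.0324 to 0.373 in posterior against anterior and -0.113 to 0.184 in delaminating against anterior cells. Centring arrays on their medians gave 0.0984 and 0.00189 there, against -0.0231 and -0.0427 over all genes, and repeated quantile normalization gave 0.148 and -0.0216. An alternative chosen after seeing the data, anterior replicate 3 left out with centring, gave -0.000739 and -0.134, with 17 of 35 and 10 of 35 members above 0. At an adjusted p under 0.05, counts of all genes called ran from 17 (without delaminating replicate 3) to 749 (array weights) in delaminating against posterior cells. They ran from 35 to 427 in posterior against anterior and from 180 to 1974 in delaminating against anterior cells. With an unadjusted p under 0.05 they were 1196, 1150 and 1985, in the same order. With the replicate number as a block 0 members and 66, 59 and 377 genes were called, against 96, 69 and 458. Same-numbered arrays of different populations deviated together with correlations of -0.12 to 0.181, and differently numbered ones with -0.181 to 0.146. The numbers were not taken as pairs in the main fit, and these overlapping ranges do not settle whether the arrays were paired. The number of arrays limited precision, and values near or below the lower quartile of an array (6.39 to 6.53) may lie near background.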
